A study of Mus musculus with 19 samples.

Results

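The nuclear genes for the last steps of mitochondrial respiration were followed in the suprarenal aorta: the subunits of complex III and complex IV and of ATP synthase. The members were chosen by name (symbols that start with Uqcr, Cox4 to Cox8 or Atp5, and Cyc1, without pseudogenes marked by -ps) and by level, with 10 normalized counts or more required in 4 mice or more. Of 43 genes with such names 41 passed, out of 14845 genes that passed the same level in a table of 20408. Cox6a2, the heart and skeletal muscle form of a complex IV subunit, had between 0 and 11.6 normalized counts and the processed pseudogene Cox6c2 between 0 and 4.39, and both were left out. The members comprise 9 genes of complex III, 15 of complex IV and 17 of ATP synthase, on 18 chromosomes.

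RNA-Seq was run on the aortas of 19 male mice on a C57BL6 background, all of them ApoE-/- and all carrying SMA-CreERT2, a tamoxifen-inducible recombinase under the Acta2 promoter that is active in smooth muscle cells. IKKβ-/- mice also had floxed alleles of Ikbkb, the gene of the inflammatory kinase IKKβ, and IKKβ+/+ mice were littermate controls without them. In the study's methods, mice of both genotypes were 8 weeks old when daily tamoxifen injections began, followed by a rest of several days. They then received either saline or angiotensin II (Ang II, a vasoactive peptide, at 1000 ng/min/kg in the study's methods and 500 to 1000 in the labels) from osmotic pumps for 24 h. The question was how the aorta responds early to Ang II and what the loss of IKKβ in smooth muscle changes. Values of single mice are given in a fixed order: X2370, X2372, X2373, X2376 and X2378 for saline-infused IKKβ+/+, X2401, X2403, X2406 and X2409 for saline-infused IKKβ-/-, X2350, X2352, X2356, X2358 and X2359 for Ang II-treated IKKβ+/+, and X2380, X2383, X2384, X2385 and X2386 for Ang II-treated IKKβ-/- mice. They are counts divided by a size factor for each library (normalized counts), on a linear scale.

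Complex III passes electrons from ubiquinol to cytochrome c, complex IV passes them on to oxygen, and both pump protons across the inner mitochondrial membrane. ATP synthase lets the protons flow back and uses them to make ATP. A few catalytic subunits are encoded in mitochondrial DNA and all others in the nucleus, so each complex is assembled from the products of both genomes, and several complex IV subunits exist in a general form and in a form found in muscle, brown fat, lung or testis. In arterial smooth muscle these complexes supply ATP for contraction, and complex III is also a source of reactive oxygen species.

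The libraries held 11382573 to 19906694 reads on genes. All 7 smooth muscle markers were present, with sums of 305181 to 634959 normalized counts per mouse. Ikbkb was 23.8% lower in the whole aorta of IKKβ-/- mice (533 ± 78.9, SD, n = 9) than in IKKβ+/+ mice (699.7 ± 66.8, SD, n = 10; two-sided exact permutation p = 0.000152), and 8 of 9 IKKβ-/- mice lay below every control. Mitochondrial transcripts took between 5.99% and 14.1% of the reads in IKKβ+/+ mice and between 7.88% and 38.7% in IKKβ-/- mice, with X2406 (38.7%) and X2385 (37.2%) highest. Mouse numbers ran in a separate range for every group and the sources name no batches, so group and batch cannot be told apart. In a whole aorta, more cells of a type and more RNA per cell cannot be told apart either.

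The promoters of these genes are shown first, since NRF1 and ETS factors are known as common regulators of nuclear respiratory genes. RefSeq promoters of GRCm38.p6 (250 bases before and 50 after a start) were found for 32 of the 41 members. The letters searched on both strands were GCGCANGCG, bound by NRF1 (nuclear respiratory factor 1), CCGGAAG, bound by ETS factors such as GABPA, and AAGATGGCG, bound by YY1. At least 1 of these words stood in the promoters of 17 members (53.1%), compared with 16.5% of all 27025 genes with a promoter and 21.8% of the 17492 protein-coding ones. NRF1 words were found in 10 members (31.2%, compared with 9.63% of protein-coding genes), ETS words in 11 (34.4%, compared with 12.9%) and YY1 words in 2 (6.25%, compared with 2.14%). A match is only a run of letters, and since the NRF1 word is close to its own reverse complement, 1 stretch can match on both strands. The 3 promoters that follow belong to the member called with Ang II (Cox6a1), to the member with the largest rise in saline-infused IKKβ-/- mice (Atp5e) and to the member with the smallest adjusted p there (Atp5h), and the fourth, without any of the words, to the brown fat and muscle form Cox8b. Capitals mark the words.
Cox6a1, chr5:115348909-115349208 (minus strand): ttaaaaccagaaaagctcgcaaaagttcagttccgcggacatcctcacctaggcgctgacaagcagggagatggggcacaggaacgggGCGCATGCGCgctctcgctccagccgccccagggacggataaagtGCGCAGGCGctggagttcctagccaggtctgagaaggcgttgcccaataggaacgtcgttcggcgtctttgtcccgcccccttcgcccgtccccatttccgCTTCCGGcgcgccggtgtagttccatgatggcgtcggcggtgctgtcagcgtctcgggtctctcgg
Atp5e, chr2:174464052-174464351 (minus strand): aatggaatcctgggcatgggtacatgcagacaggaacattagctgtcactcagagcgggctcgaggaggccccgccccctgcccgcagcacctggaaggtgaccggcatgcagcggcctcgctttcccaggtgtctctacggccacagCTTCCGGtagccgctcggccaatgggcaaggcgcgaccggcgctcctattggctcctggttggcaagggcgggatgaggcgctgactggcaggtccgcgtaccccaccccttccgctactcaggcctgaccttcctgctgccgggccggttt
Atp5h, chr11:115419870-115420169 (minus strand): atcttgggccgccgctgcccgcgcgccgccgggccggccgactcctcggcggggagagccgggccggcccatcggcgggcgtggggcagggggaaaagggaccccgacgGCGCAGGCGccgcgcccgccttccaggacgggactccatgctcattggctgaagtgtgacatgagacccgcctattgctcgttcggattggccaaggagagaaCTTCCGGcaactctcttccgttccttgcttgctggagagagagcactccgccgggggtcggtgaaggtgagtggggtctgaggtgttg
Cox8b, chr7:140900397-140900696 (minus strand): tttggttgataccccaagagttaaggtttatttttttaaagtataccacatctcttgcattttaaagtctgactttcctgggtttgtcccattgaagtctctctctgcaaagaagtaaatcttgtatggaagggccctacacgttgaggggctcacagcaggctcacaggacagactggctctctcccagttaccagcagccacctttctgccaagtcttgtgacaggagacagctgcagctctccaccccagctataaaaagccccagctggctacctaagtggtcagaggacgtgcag
The Cox6a1 promoter holds NRF1 words at 2 places and an ETS word, that of Atp5h an NRF1 and an ETS word, and that of Atp5e an ETS word. Atp5j, a subunit of the peripheral stalk, overlaps on the opposite strand with Gabpa itself, which encodes the DNA-binding part of an ETS factor.

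The members differed widely in level. Per kilobase of transcript and averaged over all mice, Uqcrh (3574 normalized counts per kb), Cox4i1 (3458) and Atp5b (3392) were highest and did not stand apart from each other, with 3027 ± 264, 3122 ± 224 and 3105 ± 376 (SD, n = 5) in saline-infused IKKβ+/+ mice. Atp5e (2886), Cox6c (2616), Atp5a1 (2236), Cox6a1 (2181), Atp5g3 (2174) and Atp5j (2162) followed. Lowest were the tissue-restricted forms Cox6b2 (79.2), Cox8b (64.4), Cox4i2 (51.4) and Cox7a1 (17.9) and the minor genes of the c subunit, Atp5g1 (42.1) and Atp5g2 (15.9). Cox7c, a general complex IV subunit, had only 315 per kb, and its count is uncertain because short respiratory genes have many near-identical processed copies in the mouse genome that can take up reads. The 4 listed pseudogenes of the families (Uqcrh-ps1, Atp5pb-ps, Cox5b-ps and Atp5l2-ps) had at most 18.02 normalized counts in any mouse. A second gene entry named Atp5o overlaps Atp5o on the same strand, so its count is uncertain too.

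With saline, the members were higher in IKKβ-/- than in IKKβ+/+ mice. The log2 fold change was above 0 for 38 of 41 members, with a median of 0.26, compared with 47.6% above 0 and a median of -0.02 over all genes tested. A gene was called where the adjusted p was below 0.1 and the change exceeded 1.2-fold. So 13 members (31.7%) were called, all of them higher, compared with 5.47% of all genes called and 3.4% called higher. In 12 members (29.3%) every IKKβ-/- mouse lay above every IKKβ+/+ mouse, which was so for 4.68% of all genes. Markers of cell types differed in the same comparison. Those of macrophages were lower for 6 of 6 (median -0.85, with Adgre1 and Cd68 called), of endothelium for 5 of 5 (-0.76), of fibroblasts for 6 of 6 (-0.49), of white adipocytes for 5 of 5 (-2.23) and of brown adipocytes for 4 of 4 (-0.94), and those of smooth muscle were higher for 6 of 7 (0.24). Markers of skeletal muscle were higher for 4 of 5 (1.06) and of cardiac muscle for 3 of 4 (1.39). None of these other than the 2 macrophage markers passed in limma, and the part of the cell makeup in the members' values was not tested. Subunits of each complex were among those called: Uqcrh, Uqcr10 and Uqcr11 of complex III, Cox4i1, Cox6c and Cox8a of complex IV, and Atp5d, Atp5e, Atp5g3, Atp5h, Atp5j, Atp5k and Atp5l of ATP synthase.

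**Figure D1:**
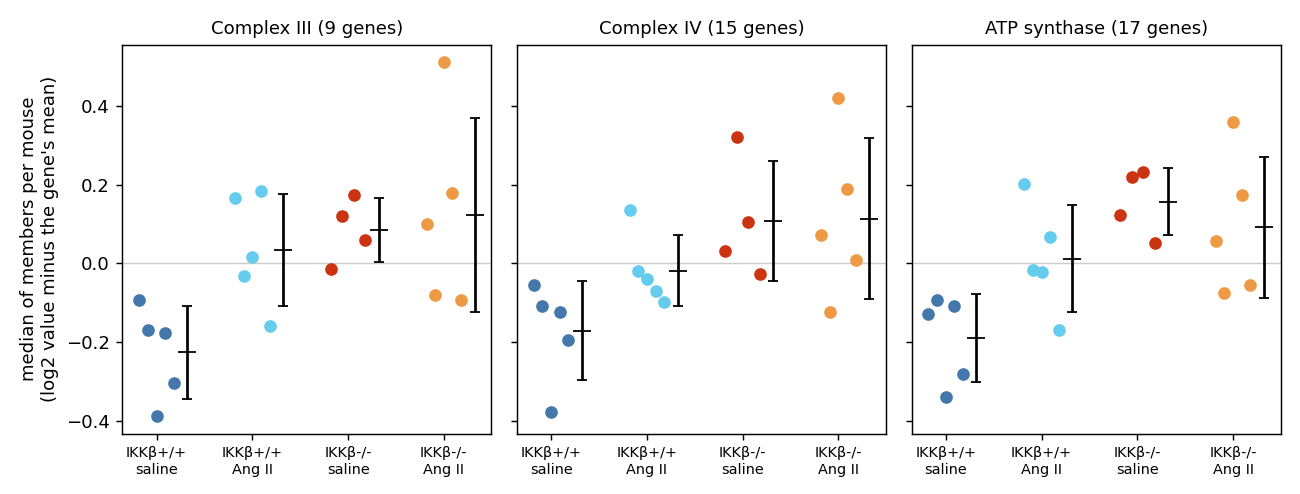
Median of the members of each complex in every mouse (log2 of the normalized count + 1 minus the mean of the gene over all mice; points are mice, bars are group means ± SD, n = 5, 5, 4 and 5). Saline-infused IKKβ+/+ mice have the lowest group mean in each complex, with values of -0.23, -0.17 and -0.19, and Ang II-treated IKKβ-/- mice are most spread, with SDs of 0.25, 0.21 and 0.18.

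Over all 41 members the median log2 deviation was -0.09, -0.11, -0.35, -0.12 and -0.27 in saline-infused IKKβ+/+ mice and 0.05, 0.23, 0.17 and 0.05 in saline-infused IKKβ-/- mice. The groups did not overlap, and X2373 was lowest of all mice. With Ang II the medians were 0.17, -0.02, -0.02, 0.07 and -0.16 in IKKβ+/+ and 0.07, -0.09, 0.39, 0.19 and -0.03 in IKKβ-/- mice. The groups overlapped, with X2384 and X2385 above every Ang II-treated IKKβ+/+ mouse and X2384 highest of all mice.

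Complex III was led by its small subunits. Uqcrh (ENSMUSG00000063882.12, chr4:116066965-116075071), the acidic hinge protein that helps cytochrome c dock, had 1551, 1460.1, 1262, 1549 and 1359.7 normalized counts in saline-infused IKKβ+/+ mice and 1829.9, 2201, 1771 and 1751 in saline-infused IKKβ-/- mice. The lowest IKKβ-/- mouse stood above the highest control, and the log2 fold change was 0.39 ± 0.10 (SE, n = 4 and 5), with an adjusted p of 0.0596 in limma. Uqcrh values with Ang II were 1888, 1570.1, 1747, 1537 and 1502 in IKKβ+/+ and 1632, 1693, 2144, 1965 and 1812 in IKKβ-/- mice, and these groups overlapped.
Uqcr10 (ENSMUSG00000059534.8, chr11:4701973-4704342), a small transmembrane subunit, had 624, 667, 474, 551 and 594 normalized counts with saline in IKKβ+/+ and 711, 959.7, 874 and 730.0 in IKKβ-/- mice. Uqcr11 (ENSMUSG00000020163.12, chr10:80402997-80406830), another one, had 423, 402, 345, 374 and 326 in IKKβ+/+ and 494, 541, 589 and 480.4 in IKKβ-/- mice. For both genes the saline groups were apart, with X2373 or X2378 lowest among the controls, and the log2 fold changes were 0.49 ± 0.13 (adjusted p = 0.0604 in limma) and 0.49 ± 0.14 (adjusted p = 0.0779). Uqcr10 was 689, 627, 733, 607 and 572 with Ang II in IKKβ+/+ and 801, 694, 983, 785 and 640.1 in IKKβ-/- mice. Uqcr11 was 518, 434, 414, 429.9 and 342 with Ang II in IKKβ+/+ and 527, 459.6, 723, 511 and 409 in IKKβ-/- mice. The Ang II groups overlapped for both.
The catalytic subunits of complex III did not pass. Cyc1, cytochrome c1, had 686, 730.4, 566, 608 and 603 normalized counts with saline in IKKβ+/+ and 720.0, 806, 729.6 and 808 in IKKβ-/- mice, and 880.4, 736, 753, 913 and 672 with Ang II in IKKβ+/+ and 937, 701, 1081, 776 and 578 in IKKβ-/- mice. Uqcrfs1, the Rieske iron-sulfur protein, had 849, 703, 689, 747 and 716 with saline in IKKβ+/+ and 745, 819.6, 847 and 737 in IKKβ-/- mice, and 869, 773, 791, 856 and 755 with Ang II in IKKβ+/+ and 708, 743, 1145, 891 and 740.4 in IKKβ-/- mice. The saline groups overlapped for both, with log2 fold changes of 0.27 ± 0.15 and 0.09 ± 0.12. The core proteins Uqcrc1 and Uqcrc2 differed by 0.10 and 0.15 and Uqcrb, which lies next to the ubiquinol site, by 0.21, none of which passed.

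In complex IV, Cox4i1 (ENSMUSG00000031818.12, chr8:120668222-120674207), the general form of subunit 4, had 2412, 2555, 2153, 2454 and 2212 normalized counts with saline in IKKβ+/+ and 3125, 3268, 2814 and 2835 in IKKβ-/- mice. The groups did not overlap (log2 fold change 0.35 ± 0.11, adjusted p = 0.098 in limma). Cox4i1 was 2535, 2343, 2573, 2316 and 2072 with Ang II in IKKβ+/+ and 2465, 2513, 3338, 3293 and 2325 in IKKβ-/- mice, where X2384 and X2385 were high and the other mice within the range of the controls.
Cox6c (ENSMUSG00000014313.15, chr15:35925886-35938246), a small membrane subunit, had 1306, 1475, 1164, 1421 and 1241 normalized counts with saline in IKKβ+/+ and 1850.1, 2273, 2524 and 1463 in IKKβ-/- mice. X2406 and X2403 were highest and X2409 lay among the controls (log2 fold change 0.59 ± 0.17, adjusted p = 0.0723 in limma). With Ang II, Cox6c was 1359, 1396, 1403, 1414 and 1145 in IKKβ+/+ and 1493, 1222, 2282, 2144 and 1549 in IKKβ-/- mice, again with X2384 and X2385 high. Cox8a (ENSMUSG00000035885.5, chr19:7215153-7217616), the general form of subunit 8, had 1047, 897, 661, 852 and 791 with saline in IKKβ+/+ and 987, 1239, 1349 and 1225 in IKKβ-/- mice. X2370 of the controls reached into the IKKβ-/- range, and the log2 fold change was 0.50 ± 0.13 (adjusted p = 0.0579 in limma). With Ang II, Cox8a was 1012, 916, 878, 916 and 861 in IKKβ+/+ and 972, 906, 1202, 1129 and 809.8 in IKKβ-/- mice.
Other general subunits differed less with saline. Cox7a2 had 890.4, 874, 710.2, 879 and 787 normalized counts in IKKβ+/+ and 902, 1070.3, 1030.5 and 978 in IKKβ-/- mice, and its groups did not overlap, but the log2 fold change of 0.27 ± 0.10 did not pass (adjusted p = 0.144 in limma). Cox6b1, which faces the intermembrane space, had 960.3, 856, 754, 806 and 854 in IKKβ+/+ and 878, 1215, 1014 and 919 in IKKβ-/- mice, which overlapped (0.24 ± 0.13). Cox5a and Cox5b, which lie on the matrix side, differed by 0.08 and 0.19, Cox7b by 0.27 and Cox7c by 0.18.

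ATP synthase had 7 of its 17 genes called with saline, and a median log2 fold change of 0.32, compared with 0.27 in complex III and 0.19 in complex IV. Over the 10 general genes of complex IV, without Cox7a2l and the low tissue-restricted forms, the median was 0.26. Atp5e (ENSMUSG00000016252.7, chr2:174461072-174464105), the epsilon subunit of the central stalk, had 932, 1055, 808, 902 and 851 normalized counts in IKKβ+/+ and 1507, 2159, 1430.4 and 1049 in IKKβ-/- mice. X2403 was highest, X2409 lay just under the highest control, and the log2 fold change was 0.71 ± 0.20 (1.64-fold, adjusted p = 0.0718 in limma). With Ang II, Atp5e was 1390.2, 1156, 1156, 1067 and 891 in IKKβ+/+ and 1552, 942, 1813, 1485 and 939.6 in IKKβ-/- mice.
Atp5d (ENSMUSG00000003072.15, chr10:80138632-80145818), the delta subunit beside it, had 966, 991, 656, 864 and 949 normalized counts with saline in IKKβ+/+ and 1210.3, 1242, 1439 and 1062 in IKKβ-/- mice. The groups did not overlap, and X2373 was far below the other controls (0.49 ± 0.15, adjusted p = 0.0821 in limma). With Ang II, Atp5d was 1441, 1065, 1059.7, 1089 and 979 in IKKβ+/+ and 1491, 1030.2, 1253, 1074 and 949.9 in IKKβ-/- mice.
In the catalytic head no member passed with saline. Atp5a1, the alpha subunit, had 6495, 5325, 5559, 5729 and 5188 normalized counts with saline in IKKβ+/+ and 5765, 5448, 6014 and 6533 in IKKβ-/- mice, and 5733, 5489, 5397, 6470.2 and 5701 with Ang II in IKKβ+/+ and 5269.6, 5719, 6018, 5799.9 and 5617 in IKKβ-/- mice. Atp5b, the catalytic beta subunit, had 7142, 5462, 5857, 5979 and 5307 with saline in IKKβ+/+ and 5932, 5233, 5497 and 7479 in IKKβ-/- mice, and 7863, 6472, 6479, 8133 and 6749 with Ang II in IKKβ+/+ and 6613, 6450.4, 7739, 6511 and 6586 in IKKβ-/- mice. The saline groups overlapped for both, with log2 fold changes of 0.07 ± 0.09 and 0.01 ± 0.12, and X2370 and X2409 were highest within their groups. Atp5c1, the gamma subunit, differed by 0.22 with groups that did not overlap and did not pass (adjusted p = 0.258 in limma).
Of the 3 genes for the c subunit of the rotor ring, which encode the same mature protein, Atp5g3 (ENSMUSG00000018770.9, chr2:73908447-73911326) carried a median of 97.5% of the level per kilobase and was called. Atp5g3 had 1637, 1377, 1323, 1437 and 1289 normalized counts with saline in IKKβ+/+ and 1630.1, 1692, 1989 and 1833 in IKKβ-/- mice, with X2370 just inside the IKKβ-/- range (0.34 ± 0.10, adjusted p = 0.0787 in limma). With Ang II, Atp5g3 was 1668, 1409, 1426, 1564 and 1392 in IKKβ+/+ and 1411, 1491, 1865, 1688 and 1562 in IKKβ-/- mice. The minor genes had few counts. Atp5g1 had 87.8, 117, 89.0, 104 and 97.2 with saline in IKKβ+/+ and 96.5, 133, 108 and 92.9 in IKKβ-/- mice, and 145, 145, 99.8, 122 and 130.2 with Ang II in IKKβ+/+ and 130.3, 107, 129.96, 125 and 78.4 in IKKβ-/- mice. Atp5g2 had 6.66, 13.5, 7.93, 3.798 and 10.4 with saline in IKKβ+/+ and 6.76, 3.16, 9.01 and 9.43 in IKKβ-/- mice, and 20.4, 8.54, 8.78, 5.73 and 0.994 with Ang II in IKKβ+/+ and 21.3, 5.56, 28.5, 3.21 and 3.86 in IKKβ-/- mice. Their groups overlapped in every comparison.
Of the peripheral stalk, Atp5h (ENSMUSG00000034566.10, chr11:115415689-115419962), subunit d, had 771, 738, 733, 703 and 746 normalized counts with saline in IKKβ+/+ and 933, 1108, 975 and 859 in IKKβ-/- mice. Atp5j (ENSMUSG00000022890.13, chr16:84827866-84835625), coupling factor 6, had 1359, 1487, 1254, 1477 and 1336 in IKKβ+/+ and 1762, 1992, 1866 and 1641 in IKKβ-/- mice. Both had narrow, separate groups, with log2 fold changes of 0.39 ± 0.10 (adjusted p = 0.0533 in limma, the smallest among the members) and 0.39 ± 0.11 (adjusted p = 0.0732). With Ang II, Atp5h was 953, 801, 822, 772 and 737 in IKKβ+/+ and 787, 758, 960.4, 878 and 832 in IKKβ-/- mice. Atp5j was 1597, 1569, 1483, 1524 and 1378 with Ang II in IKKβ+/+ and 1651, 1314, 2076, 1985 and 1722 in IKKβ-/- mice. Atp5o, the oligomycin sensitivity-conferring subunit at the top of the stalk, differed by 0.32 with saline (adjusted p = 0.292 in limma).
The small membrane subunits e and g hold the enzyme together in dimers. Atp5k (ENSMUSG00000050856.16, chr5:108433244-108434448), subunit e, had 521, 515, 367, 407 and 420.0 normalized counts with saline in IKKβ+/+ and 608, 753, 634 and 610.3 in IKKβ-/- mice. Atp5l (ENSMUSG00000038717.8, chr9:44912557-44920742), subunit g, had 221, 286, 221, 276 and 236 in IKKβ+/+ and 384, 367, 357 and 313 in IKKβ-/- mice. The groups did not overlap, and the log2 fold changes were 0.55 ± 0.16 (adjusted p = 0.0747 in limma) and 0.52 ± 0.15 (adjusted p = 0.0779). With Ang II, Atp5k was 661, 536, 558, 561 and 411 in IKKβ+/+ and 712, 421, 704, 684 and 563 in IKKβ-/- mice, and Atp5l was 213, 253, 279, 242 and 244 in IKKβ+/+ and 223, 279, 401, 387 and 288 in IKKβ-/- mice. Atp5j2, subunit f, differed by 0.31 ± 0.11 with groups that did not overlap and did not pass (adjusted p = 0.126 in limma). Atp5mpl and the stalk subunit Atp5pb differed by 0.26 ± 0.15 and 0.22 ± 0.12. Atp5md, also a dimer subunit, differed by 0.58 without passing (adjusted p = 0.107 in limma).

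**Figure D2:**
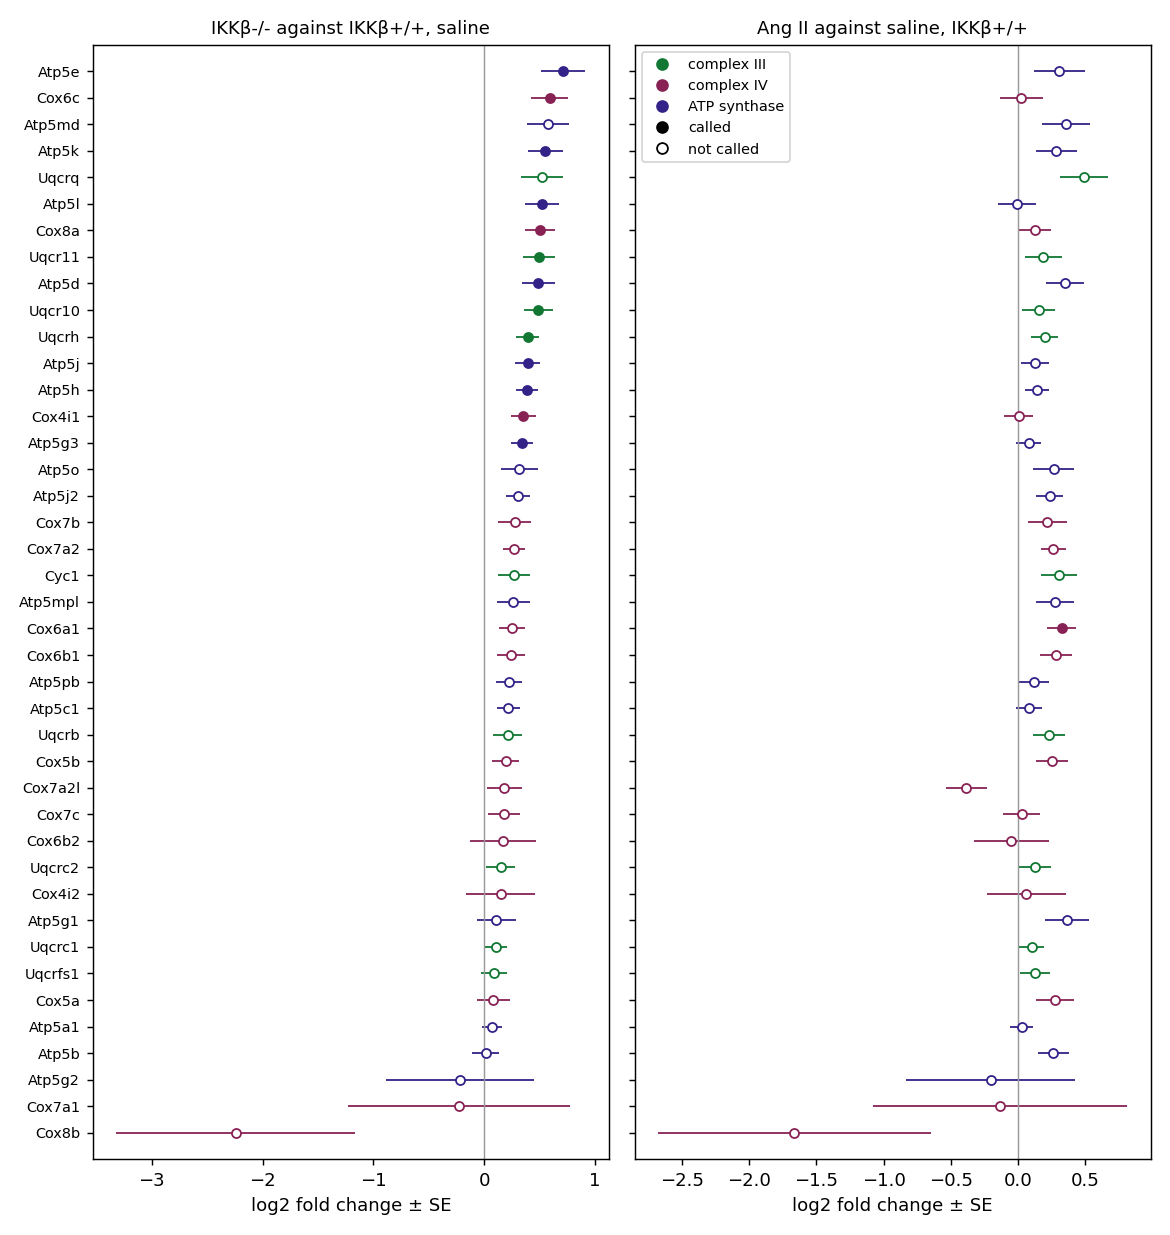
Log2 fold changes (± SE) of the 41 members between genotypes with saline (left) and between Ang II and saline in IKKβ+/+ mice (right), ordered by the saline difference, with filled points for the members called. In the left panel 13 members are filled, all above 0, and in the right panel 1 (Cox6a1), and Cox8b has the widest errors.

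The size of the saline difference went with transcript length, among the members and among all genes. The 41 members have short transcripts, with a median of 645 nt compared with 2624 nt over the genes tested. Over 11 members up to 500 nt the median log2 fold change was 0.39, compared with 0.39 over all 258 genes of this length. Between 500 and 700 nt it was 0.27 in 11 members and 0.25 in 423 genes, between 700 and 1000 nt 0.33 in 8 members and 0.17 in 819 genes, and between 1000 and 2000 nt 0.18 in 9 members and 0.08 in 3639 genes. Of the members in the 3 shortest classes 5 of 11, 4 of 11 and 4 of 8 were called higher, compared with 10.1%, 9.93% and 8.06% of all genes of these lengths, and of the 11 longer members none was. The rank correlation of the difference with length was -0.38 over the members and -0.29 over 14835 genes, which share the same libraries. With this trend removed from every mouse, the members' median was 0.09, 27 of 41 were above 0, and none was called by limma, compared with 3.66% of all genes.

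**Figure D3:**
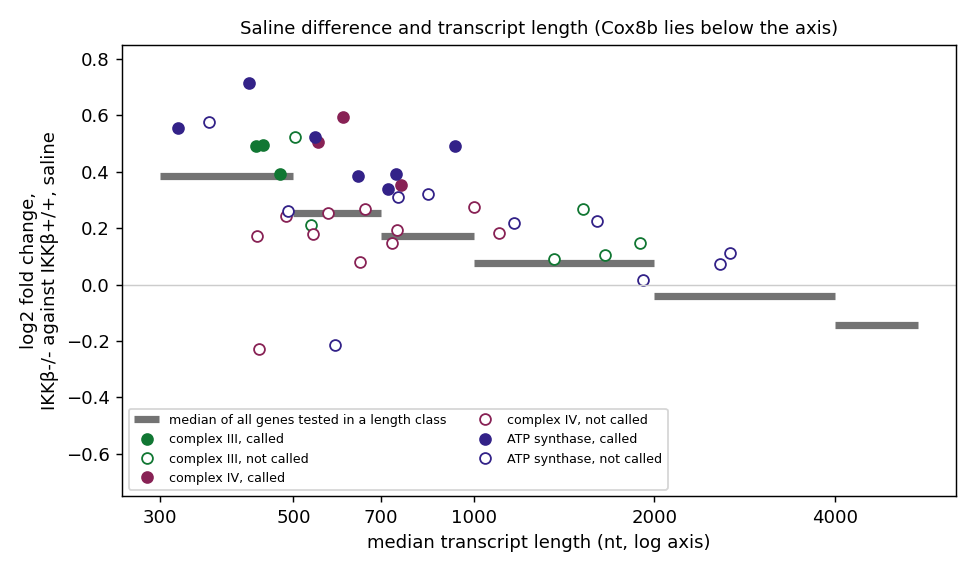
Saline difference of each member (log2 fold change, IKKβ-/- against IKKβ+/+) by the median length of its transcripts (nt, log axis), with the median of all genes tested in each length class as grey bars. Members of up to 700 nt scatter around the grey bars of 0.39 and 0.25, and Cox8b (-2.24) lies below the range shown.

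The calls with saline also rested on single mice. Leaving out X2373, X2403 or X2406 left 0 members called, leaving out X2376 left 1, leaving out X2370 or X2401 left 3 each and leaving out X2378 left 4, while the 12 other fits called 10 to 15. The calls over all genes moved in the same way, from 812 to 24 without X2406 and to 66 without X2403. Without X2385 and X2406, the mice with the highest mitochondrial share, no member was called and 0.128% of all genes were, but 38 of 41 members were still above 0, with a median of 0.26. Every single omission kept the median between 0.21 and 0.30.

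Of the subunits encoded in mitochondrial DNA, mt-Co1 and mt-Cytb were analysed here. mt-Co1, the catalytic subunit of complex IV, had 334990.4 ± 55779.5 normalized counts (SD, n = 5) in saline-infused IKKβ+/+ and 1119657 ± 888650 (SD, n = 4) in saline-infused IKKβ-/- mice, and 503643 ± 57653 and 1052376 ± 600311 (SD, n = 5 each) with Ang II. mt-Cytb, cytochrome b of complex III, had 221829 ± 37978, 770341 ± 636731, 387371 ± 32850 and 743086 ± 440972 in the same order. The spread in IKKβ-/- mice was wide, and no comparison of either gene passed (adjusted p = 0.179 and 0.151 in limma for the genotypes with saline). Set against its nuclear partner Cox4i1, mt-Co1 gave a ratio of normalized counts (not corrected for length) of 99.8 to 158 in saline-infused and 161 to 243 in Ang II-treated IKKβ+/+ mice, and of 142 to 855 and 125 to 592 in saline-infused and Ang II-treated IKKβ-/- mice. These mt-Co1 ratios did not overlap between Ang II and saline in IKKβ+/+ mice and overlapped in IKKβ-/- mice. The ratio of mt-Cytb to Cyc1 overlapped in both genotypes. It was 239 to 398 with saline and 380 to 560 with Ang II in IKKβ+/+ mice. In IKKβ-/- mice it was 321 to 2318 and 295 to 1815. The part of the mitochondrial share in the members' values was not tested.

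**Figure D4:**
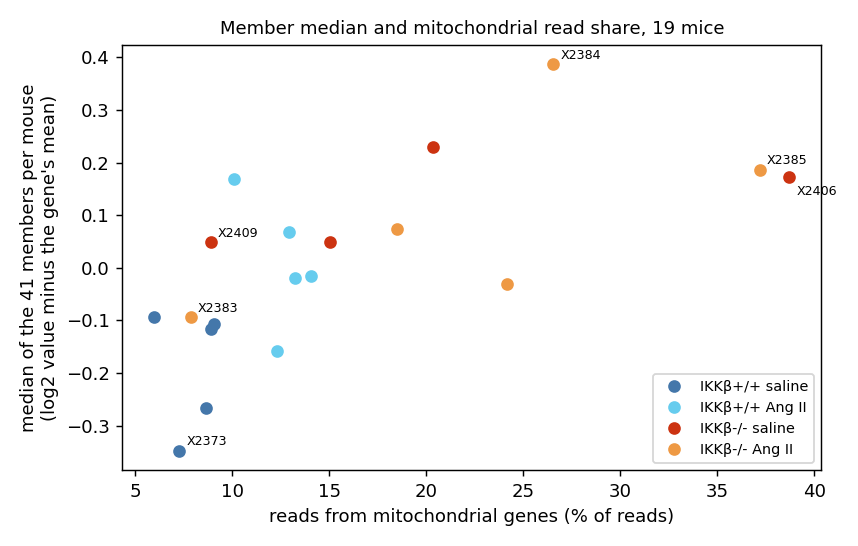
Median of the 41 members (log2 deviation from each gene's mean) against the share of reads from mitochondrial genes (%), with 1 point per mouse and groups by colour. Saline-infused IKKβ+/+ mice lie at 5.99% to 9.07% with medians under 0, and X2406 and X2385 lie alone beyond 37%.

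With Ang II in IKKβ+/+ mice, 35 of 41 members had a log2 fold change above 0 (median 0.15), compared with 50.7% and a median of 0.01 over all genes, but only 1 passed (2.44%, compared with 8.66% of all genes). With the length trend removed the median was 0.08, with 29 members above 0, and without X2359 it was 0.23. Smooth muscle markers were higher for 6 of 7 (median 0.22, Cnn1 and Tagln called), and markers of fibroblasts were lower for 6 of 6 (-0.56, Lum called) and of endothelium for 4 of 5 (-0.62, none called). Markers of skeletal muscle were higher for 3 of 5 (0.75, Ckm called) and of cardiac muscle for 3 of 4 (0.42, none called). White adipocyte markers were higher for 5 of 5 (0.46, none called). The summed level of the 5 neuronal markers reached 4359 normalized counts with Ang II (median 19.2), compared with at most 55.2 with saline. Single mice carried it: the neuronal markers Dbh and Th had 1674 and 825 in X2356 and 214 and 98.5 in X2350. The part of all these markers' cell types in the members' values was not tested. In 2 members (4.88%, compared with 3.95% of all genes) every Ang II-treated mouse lay above every saline-infused one. Cox6a1 (ENSMUSG00000041697.8, chr5:115345642-115348981), the general form of subunit 6a on the outer face of complex IV, had 1077, 1133, 948, 1061 and 1066 normalized counts with saline and 1537, 1441, 1151, 1375 and 1152 with Ang II in IKKβ+/+ mice. The groups did not overlap, and Cox6a1 rose 1.25-fold (log2 0.32 ± 0.11, SE, n = 5 and 5, adjusted p = 0.0961 in limma). This call was near the threshold: 12 of 19 fits that left out a mouse called 0 members, namely those without X2350, X2352, X2358, X2370, X2372, X2373, X2376, X2378, X2385, X2401, X2403 or X2409. The fit without X2356 called 3 members, and those without X2359, X2380 or X2383 called 2 each. In IKKβ-/- mice Cox6a1 was 1291, 1349.5, 1083 and 1327 with saline and 1450.0, 1112, 1587, 1363 and 1156 with Ang II, and these groups overlapped.
Cox7a2 was the other gene with separate groups, at 1042, 947, 923, 1056 and 988 with Ang II in IKKβ+/+ mice (0.26 ± 0.09, adjusted p = 0.111 in limma). In IKKβ-/- mice with Ang II it was 1007, 968, 1282, 1037 and 954. Uqcrq, the ubiquinone-binding subunit of complex III, had the largest positive value in this comparison. Uqcrq was 417, 481, 331, 442 and 402 with saline and 614, 647, 572, 628 and 456 with Ang II in IKKβ+/+ mice, and 541, 705, 688 and 467 and 788, 425, 868, 766 and 501 in IKKβ-/- mice. Only X2359 of the Ang II-treated IKKβ+/+ mice fell within the saline range (0.49 ± 0.18, adjusted p = 0.119 in limma). Cox6b1 was 1217, 959.6, 965, 1019 and 999.9 with Ang II in IKKβ+/+ and 886, 900.1, 1375, 1109.6 and 991 in IKKβ-/- mice, with X2350 and X2384 standing out.
Cox7a2l, which is related to Cox7a2, went the other way. It had 958, 1099.6, 989, 1140.3 and 1114 normalized counts with saline and 732, 860.3, 1074, 602 and 854 with Ang II in IKKβ+/+ mice. X2356 kept a value within the saline range, and the log2 fold change of -0.39 ± 0.15 did not pass (adjusted p = 0.151 in limma). In IKKβ-/- mice Cox7a2l was 1351, 1196, 1202 and 1072 with saline and 749, 1078, 1324, 1362 and 1028 with Ang II. Its difference between genotypes with Ang II was 0.42 ± 0.15 (adjusted p = 0.23), and among the general members it followed the median of the others least across mice within groups (r = 0.11 over 19 mice).

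In IKKβ-/- mice, Ang II against saline gave no call among the members in limma, compared with 5.29% of all genes. The median was -0.03 and 17 members were above 0. The sign of this median was not stable, with -0.08 without X2384, 0.02 without X2383 and 0.05 with scaling to nuclear reads, which moved the median of all genes to 0.08. White adipocyte markers rose in this comparison, 5 of 5 called (median 4.04), and their part in the members' values was not tested. Among the members, 1 member (2.44%) had an unadjusted p under 0.05, compared with 17.8% of all genes. That member was Cox8b, which DESeq2 and limma with array weights called, where 7.83% and 5.91% of all genes were called. edgeR called 0 members, compared with 4.86% of all genes. Among general members Cox8a had the largest value, -0.26 ± 0.13 (adjusted p = 0.308 in limma).
The difference of the Ang II effect between genotypes gave no call either, as for all genes (0.0%). Of the members, 36 of 41 had a value under 0 (median -0.19, compared with 0.00 over all genes), and 5 (12.2%) had an unadjusted p under 0.05, compared with 11.1% of all genes. DESeq2 called 1 member, Cox8b, and edgeR called 0, compared with 1.87% and 0.0202% of all genes. The median was -0.11 with array weights (9 members above 0) and -0.07 with the length trend removed (10 above 0). Scaling to nuclear reads gave -0.06 (17 above 0), with the median of all genes at 0.13. White adipocyte markers were above 0 for 5 of 5 (median 3.54), brown for 4 of 4 (2.51), fibroblast for 6 of 6 (0.64) and endothelial for 5 of 5 (0.48). Smooth muscle markers were under 0 for 7 of 7 (-0.51), cardiac for 4 of 4 (-1.22) and skeletal muscle for 4 of 5 (-1.50). None of them was called, and their part in the members' values was not tested. Apart from Cox8b and Atp5g2, the largest value belonged to Atp5md, the subunit also known as DAPIT. Atp5md had 367, 503, 424, 483 and 304 normalized counts with saline and 506, 495, 508, 656 and 481 with Ang II in IKKβ+/+ mice, and 630.2, 595, 771 and 484 and 460.2, 397, 692, 759.5 and 449 in IKKβ-/- mice. The Ang II effect was 0.36 ± 0.18 in IKKβ+/+ and -0.20 ± 0.19 in IKKβ-/- mice, a difference of -0.56 ± 0.26 that did not pass (adjusted p = 0.437 in limma). The comparisons share the saline-infused groups, so a low control value enters both the genotype difference with saline and the Ang II effect in IKKβ+/+ mice.
Between genotypes with Ang II no member was called in limma, compared with 0.128% of all genes, and 6 members (14.6%) had an unadjusted p under 0.05, compared with 14.3% of all genes. The median was 0.10 and 32 members were above 0. It turned to -0.02 with the length trend removed (18 above 0), was 0.04 without X2384 (23 above 0) and 0.21 with scaling to nuclear reads (39 above 0), where the median of all genes was 0.10. DESeq2 called 1 member, again Cox8b, and edgeR called 0, compared with 3.52% and 0.108% of all genes. Smooth muscle markers were lower for 7 of 7 (median -0.21), macrophage for 6 of 6 (-0.37) and endothelial for 4 of 5 (-0.21). White adipocyte markers were higher for 5 of 5 (1.31), brown for 3 of 4 (1.55) and fibroblast for 4 of 6 (0.08). None of these was called in limma, and their part in the members' values was not tested.

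The tissue-restricted forms were low in these aortas and made up a small share of each subunit. Per kilobase, Cox4i2, known from lung, made up 0.651% to 2.18% of subunit 4. It had 39.3, 37.3, 34.4, 43.7 and 19.1 normalized counts with saline in IKKβ+/+ and 31.8, 22.1, 55.8 and 48.6 in IKKβ-/- mice, and 40.7, 35.2, 29.6, 27.7 and 44.7 with Ang II in IKKβ+/+ and 46.2, 48.4, 21.1, 45.0 and 42.4 in IKKβ-/- mice. X2378 and X2384 were lowest, and Cox4i2 was the one member that varied against the median of the others within groups (r = -0.34 over 19 mice). Cox6b2, the testis form, made up 2.40% to 5.57% of subunit 6b. It had 39.9, 31.8, 24.7, 33.2 and 37.5 with saline in IKKβ+/+ and 46.3, 50.6, 30.6 and 26.9 in IKKβ-/- mice, and 34.3, 22.4, 39.5, 27.7 and 38.8 with Ang II in IKKβ+/+ and 40.7, 20.6, 54.9, 32.1 and 21.9 in IKKβ-/- mice. All groups of both genes overlapped.
Cox7a1, the heart and muscle form that brown fat also has, had 12.0, 1.59, 4.41, 0.949 and 20.7 normalized counts with saline in IKKβ+/+ and 4.83, 24.2, 0 and 3.63 in IKKβ-/- mice, and 5.36, 5.34, 1.10, 8.60 and 4.97 with Ang II in IKKβ+/+ and 0, 3.97, 41.2, 1.61 and 5.14 in IKKβ-/- mice. Cox8b (ENSMUSG00000025488.9, chr7:140898945-140900446), with the same tissues, had 26.6, 3.97, 4.41, 11.4 and 55.0 with saline in IKKβ+/+ and 0, 17.9, 0 and 2.90 in IKKβ-/- mice. With Ang II, Cox8b was 5.36, 3.20, 7.68, 0 and 5.96 in IKKβ+/+ and 28.6, 2.38, 202, 51.4 and 11.6 in IKKβ-/- mice. Single mice carried both genes, X2384 above all, followed by X2403 and X2378 for Cox7a1 and X2378 and X2385 for Cox8b, and the groups overlapped in all comparisons.
Cox8b had the largest absolute log2 fold change of all members in every comparison, namely -1.66 ± 1.02 and 3.18 ± 1.08 for Ang II in IKKβ+/+ and IKKβ-/- mice, 4.85 ± 1.48 for their difference, and -2.24 ± 1.08 and 2.60 ± 1.02 between genotypes with saline and with Ang II. None passed in limma (adjusted p from 0.118 to 0.374). In X2384 it made up 20.4% of subunit 8 per kilobase, compared with a median of 1.05% over all mice. Ucp1, the uncoupling protein of brown fat, had 1156 normalized counts in X2384, 283 in X2378 and 124 in X2403, and between 0 and 24.9 in the other 16 mice. Adipoq, the adipocyte hormone, had 3350 in X2384 and 3298 in X2385. The summed level of the 5 brown adipocyte markers was 2047 to 3263 and 1097 to 3377 in saline-infused IKKβ+/+ and IKKβ-/- mice and 2155 to 7623 and 1258 to 5588 with Ang II, and that of the 6 white adipocyte markers 885 to 8919, 1030.5 to 4153, 2567 to 6380 and 2369.99 to 24731 in the same order. The brown sums did not follow Ucp1. The highest, 7623, was that of X2358, where the brown marker Dio2 had 7517 and Ucp1 7.64. In X2384, with a sum of 5588, Dio2 had 3747. No marker of either list was at 0 in X2384, and the part of adipose tissue in these values was not tested. The sums of 7 skeletal muscle markers stayed between 57.4 and 492.

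**Figure D5:**
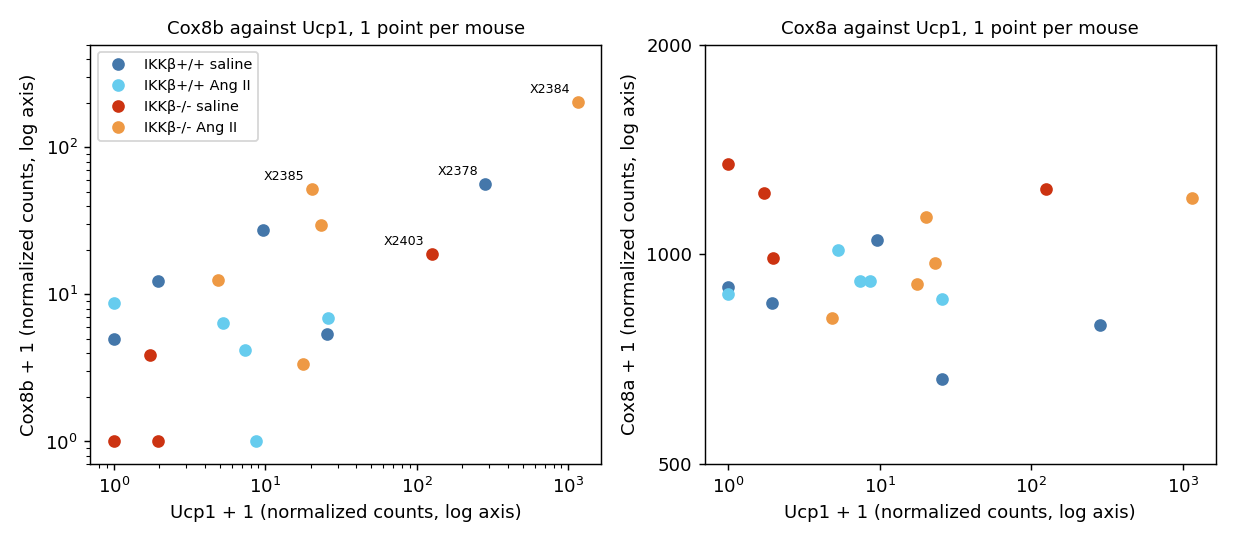
Cox8b (left) and Cox8a (right) against Ucp1 in every mouse (normalized counts + 1, log axes; colours are the 4 groups). X2384 has the most Ucp1 (1156) and Cox8b (202), while Cox8a lies between 661 and 1349 at all levels of Ucp1.

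Among themselves the members varied together. With group means removed, the median correlation was 0.47 over 820 pairs of all members and 0.53 over 630 pairs of the 36 members other than Cox4i2, Cox6b2, Cox7a1, Cox8b and Atp5g2, with 93.0% of these pairs above 0 (19 mice, libraries shared by all genes). Within complexes the medians were 0.56 (III), 0.58 (IV) and 0.48 (ATP synthase). Cox7b (0.92) and Atp5mpl (0.91) followed the median of the other members most closely. The large subunits Uqcrc1 (0.31), Atp5b (0.30) and Atp5a1 (0.25) followed it less.

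Genes that work around the complexes gave few calls. Of 5 genes for complex II and cytochrome c none was called in any comparison, and of 12 regulators, among them Ppargc1a, Nrf1, Gabpa, Yy1 and Tfam, none was called in any comparison either. Of 20 complex IV assembly factors 2 were called with saline, Cox20, which receives mt-Co2, at 287 ± 43.9 (SD, n = 5) in IKKβ+/+ and 474 ± 120.5 (SD, n = 4) in IKKβ-/- mice (log2 0.70 ± 0.19, adjusted p = 0.0589 in limma), and Pet100 at 117 ± 26.2 and 198 ± 67.3 (0.71 ± 0.22, adjusted p = 0.0947). With 5.47% of all genes called in that comparison, such a count is near the background. With Ang II in IKKβ+/+ mice, where 8.66% of all genes were called, 1 of 6 assembly factors of complex III, 1 of 20 of complex IV and 1 of 3 of ATP synthase were called, too few to read against that share. Uqcc2, needed for cytochrome b of complex III, was 259 ± 19.7 with saline and 432 ± 129 with Ang II (0.69 ± 0.20, adjusted p = 0.0541 in limma), and Cox19, a copper factor of complex IV, was 220.4 ± 16.8 and 304 ± 64.5 (0.44 ± 0.15, adjusted p = 0.0918). Atpaf1, a chaperone of the beta subunit of ATP synthase, fell from 69.3 ± 4.83 to 47.0 ± 8.66 (SD, n = 5 each, -0.56 ± 0.19, adjusted p = 0.0967). Atpif1, the inhibitor of ATP synthase, was called higher in saline-infused IKKβ-/- mice (0.38, 1 of 1 gene tested on its list), and none of 6 complex III factors and 3 ATP synthase factors was.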

How the data were processed

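Poly(A) RNA of 19 suprarenal aortas was sequenced as stranded single-end libraries. The authors trimmed reads with Trimmomatic 0.35, aligned them to GRCm38 (Gencode M25) with STAR 2.7.1a and normalized gene counts with DESeq2 1.30.1. The deposited values are a signal of that kind, each mouse's gene counts divided by its size factor, and 100% of them were whole reads (tolerance 0.05 reads) once divided by the value of 1 read. Poly(A) selection and near-identical processed copies can lower or split the counts of short genes.

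Genes with 10 normalized counts or more in 4 mice or more were tested (14845 of 20408). log2(value + 1) was fitted with limma 3.58.1 (trended variances, R 4.3.3) over all 4 groups, which share 1 estimate of the spread, with Benjamini-Hochberg adjustment over all genes tested. Fold changes on this scale understate those of low genes. Groups were taken from the labels, and the mice are separate animals whose numbers pair no samples. A mouse pair within a group always differed beyond counting noise. Alternatives were a pseudocount of 4, no filter, only the groups compared, array quality weights, TMM scaling, edgeR 4.0.16 and DESeq2 1.42.0 on the recovered reads, and each mouse left out. Removal of a trend with transcript length, scaling to nuclear reads and omission of X2385 and X2406 were chosen after seeing the data. Scripts were tested on simulated data. Members given mouse by mouse were those called, the 3 with the largest absolute log2 fold change in each comparison, families with 2 or more forms measured, Cyc1, Uqcrfs1, Atp5a1 and Atp5b. The other members are named for their role, after their values were seen. The members and lists were chosen with earlier results of these data known. Transcript lengths and overlaps of genes are from GENCODE M21, not from the M25 annotation of the counts. The length of a gene is the median over its basic protein-coding transcripts, or over all its basic transcripts where it has no such ones. Promoters and their build (GRCm38.p6) are from RefSeq.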

Additional observations from a re-analysis of the deposited data

Results flagged for a closer look

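Values of 120 groups of 4 or 5 mice (29 members described and the median of all members, by group) were tested by Dixon's criterion for a mouse far from the rest, and 10 stood apart, where chance gives about 1 in 20. X2384, an Ang II-treated IKKβ-/- mouse, accounted for 5 of them. It was above the other mice of its group for Atp5b (7739 normalized counts, others 6450.4 to 6613), Cox7a2 (1282, others 954 to 1037), Cox7a1 (41.2, others 0 to 5.14) and Cox8b (202, others 2.38 to 51.4), and below them for Cox4i2 (21.1, others 42.4 to 48.4). Among Ang II-treated IKKβ+/+ mice, X2350 was high for Atp5d (1441, others 979 to 1089) and Cox6b1 (1217, others 959.6 to 1019), X2358 was high for Atp5md (656, others 481 to 508), and X2359 was low for Cox6c (1145, others 1359 to 1414). X2403, a saline-infused IKKβ-/- mouse, was high for Cox8b (17.9, others 0 to 2.90).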

How the results depend on the processing

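With saline, limma called 13 members. The count fell to 0 with the trend with transcript length removed (median 0.0903), to 3 (Atp5e, Atp5h and Cox8a) with scaling to nuclear reads and to 0 without X2385 and X2406, and ranged from 0 to 15 with each mouse left out. The other alternatives gave 11 to 16, where 3.16% to 12.8% of all genes were called. With Ang II in IKKβ+/+ mice, 1 member was called. The count was 0 without a filter, with TMM and with scaling to nuclear reads, and 0 to 3 with each mouse left out. It was 3 with only the groups compared (12.8% of all genes), 4 with array weights (14.0%) and 2 with DESeq2 (12.7%), each time with Cox6a1. With the length trend removed it was 2 (8.52% of all genes), Uqcrq higher and Cox7a2l lower. Cox6a1 was then not called (adjusted p = 0.253 in limma). Cox7a2l was also called lower with array weights. In IKKβ-/- mice the count of 0 became 1 (Cox8b) with array weights, DESeq2 and the length trend removed (5.91%, 7.83% and 6.05% of all genes). It was 0 to 1 with each mouse left out (1 without X2383 or X2403, 7.29% and 3.91% of all genes). For the difference of the effects DESeq2 gave 1 (Cox8b, with 1.87% of all genes called) and each omission gave 0. Scaling to nuclear reads moved the median of this difference from -0.19 to -0.0555, array weights to -0.11 and the length trend's removal to -0.07. The median between genotypes with Ang II turned from 0.10 to -0.02 with the length trend removed, and that for Ang II in IKKβ-/- mice lay between -0.08 and 0.05 over all alternatives. Between genotypes with Ang II, DESeq2 gave 1 (Cox8b, with 3.52% of all genes called). The omissions gave 0 to 1 (1 without X2356 or X2380, 3.73% and 1.92% of all genes). Where no value shows it, the cause was not tested. Atp5g2, with few counts, turned direction between genotypes with Ang II (-0.14 without X2359, -0.0555 without X2384, other omissions up to 0.71) and for Ang II in IKKβ-/- mice (-0.0438 without X2384, other omissions up to 0.66), and it was called in neither. The 14 gene results that were called kept their direction under all alternatives run, and kept the call in 262 of 406.

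No paired analysis was possible because the groups share no replicate numbers. With 4 or 5 mice a group, changes under about 1.2-fold were not called by definition, and genes at a few counts (Cox7a1, Cox8b, Atp5g2) have SEs too wide for such changes.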
